A study of Mus musculus with 24 samples.

Results

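The liver transcripts of 9 circadian clock and clock output genes, Arntl, Per3, Dbp, Tef, Hlf, Nfil3, Usp2, Wee1 and Upp2, were followed through the 3 diets of 2 inbred mouse strains. They were the rows of the authors' deposited expression tables whose RefSeq transcript belongs to one of these genes, with all transcripts kept. They were chosen by their deposited statistics and fold changes in these tables, so their fold changes and statistics are given as a description and support no test. All 9 had a row in at least 1 table, among 862 named genes that did. RNA came from liver of C57BL/6J or A/J mice in 3 feeding groups per strain, with 2 libraries in each of the 6 groups. The Control group received 16 weeks of control diet, the HF group 16 weeks of high fat diet, and the Reversal group 8 weeks of high fat diet and thereafter 8 of control diet. One label of the Reversal samples has 16 weeks for this return to control diet, and the 8 of the treatment protocol were used. The sources used here give no sex, age or hour at which livers were taken.

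The liver clock is a feedback loop of transcription. ARNTL (also called BMAL1) with CLOCK or NPAS2 activates genes through E-boxes, among them the PER and CRY repressors that close the loop, and the nuclear receptors of the REV-ERB and ROR families act on ROR elements, through which Arntl and Nfil3 are driven at a phase opposite to that of E-box genes. The output factors DBP, TEF and HLF activate D-boxes, and NFIL3 represses them. In liver, this loop sets daily rhythms of drug, lipid, sugar and nucleoside metabolism, and it takes timing cues from feeding as well as from light.

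Stretches of the promoters are shown because they hold letters of motifs known from the clock. Whether the copies shown here act on these genes was not tested. Windows of 250 bases before to 50 after an annotated start were at hand for 8 of the 9 genes, 11 windows in all, from RefSeq on GRCm38.p6. Wee1 was not among them. Both strands were searched for the E-box CACGTG, the D-boxes TTATGTAA and TTATGCAA, and the ROR element core TAGGTCA. Motif letters are in capitals, and sequences read 5′ to 3′ on the strand of the gene.
Per3, 250 to 1 bases before its start, chr4:151044666-151044915, minus strand: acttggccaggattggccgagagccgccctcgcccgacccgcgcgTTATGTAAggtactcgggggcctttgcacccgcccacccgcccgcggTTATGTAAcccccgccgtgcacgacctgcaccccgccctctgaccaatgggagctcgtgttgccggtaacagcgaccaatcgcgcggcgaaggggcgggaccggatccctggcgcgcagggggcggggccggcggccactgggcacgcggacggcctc
Tef, 180 to 81 bases before start 1, chr15:81802493-81802592, plus strand: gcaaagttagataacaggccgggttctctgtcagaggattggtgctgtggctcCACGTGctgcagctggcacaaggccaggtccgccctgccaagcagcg
Tef, 180 to 81 bases before start 2, chr15:81811234-81811333, plus strand: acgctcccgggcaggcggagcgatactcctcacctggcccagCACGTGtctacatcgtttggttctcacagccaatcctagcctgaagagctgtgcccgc
Nfil3, 100 to 1 bases before its start, chr13:52981040-52981139, minus strand: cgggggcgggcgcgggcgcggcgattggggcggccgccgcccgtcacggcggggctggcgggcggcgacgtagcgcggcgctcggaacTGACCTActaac
Arntl, 16 to 45 bases after start 2, chr7:113207527-113207556, plus strand: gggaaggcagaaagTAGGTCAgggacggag

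Per3 was the gene with D-boxes, 2 copies of TTATGTAA that begin 205 and 158 bases before the start. Tef held an E-box near each of its starts, beginning 127 and 138 bases before them. Nfil3 and Arntl held the ROR element core, in Nfil3 on the other strand, where it reads TGACCTA. No searched letters stood in the windows of Dbp, Hlf, Usp2 and Upp2. Of all 32851 promoter windows of the same length, 7.15% held the E-box, 1.66% either D-box and 2.61% the ROR element core. A match describes letters in a window and no binding was measured at it. The deposited peak lists of open chromatin are on mm9 and were not used here, because no gene positions on that build were at hand.

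**Figure D1:**
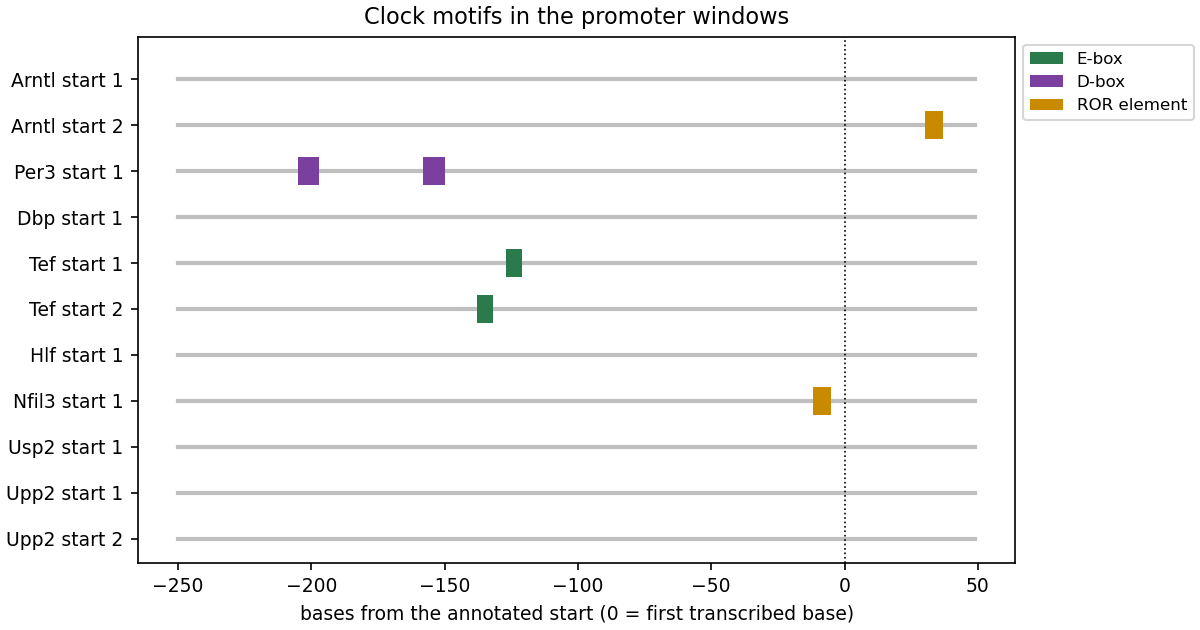
Position of E-boxes, D-boxes and ROR element cores in the 11 promoter windows, in bases from the annotated start. Each grey line is a window and each coloured block a match on either strand, with 2 D-boxes in Per3, 1 E-box at each start of Tef, and 1 ROR element core each in Arntl and Nfil3.

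Each row of the authors' deposited tables gives a mean normalized count over libraries, a log2 fold change with its standard error (SE), and a likelihood ratio statistic over all 3 diets of the strain with its p and adjusted p. The fold change sets 1 diet against another without naming either, so its sign is not read as up or down on high fat diet. The statistic has 2 degrees of freedom and the fold change uses 1 of them. Its squared ratio to the SE was therefore taken off the statistic, and the remainder is the part that lies with the diet outside the contrast. From the remainder an unsigned distance of that diet from the mean of the other 2 diets was worked out on the log2 scale, on the assumption that the 3 diet means are equally precise. Distances are approximate.

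In A/J liver, 7 of the 9 genes had rows, 15 transcripts of the 699 in the table, where 3.39% of the 20591 transcripts tested were called at an adjusted p under 0.05. Per3, Upp2, Tef, Usp2 and Dbp ranked 3, 4, 6, 8 and 9 by statistic among the 482 named genes. In C57BL/6J liver, 6 of the 9 had rows, 11 transcripts of 681, against 3.46% of 19658 called. There the highest rank was 61, of Nfil3 among 455 named genes. Arntl, Usp2, Wee1 and Upp2 were in both tables, Per3, Dbp and Tef in A/J alone, and Hlf and Nfil3 in C57BL/6J alone. Of the 862 named genes with a row in either table, 75 were in both. At stricter thresholds of 0.01 and 0.001 on the adjusted p, 6 and 5 of the genes were left in C57BL/6J, where 1.89% and 1.21% of transcripts were called, and 7 and 7 in A/J, where 2.17% and 1.36% were. A gene without a row has no value here, and its absence does not show that the strains differed. The labels tie no library to an animal, so the deposited p-values measure the spread between libraries, which may be technical. In bulk RNA, fewer cells of a type and less RNA per cell cannot be told apart.

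The core loop was represented by Arntl, its activator, and Per3, one of the period genes. In A/J liver, 3 Per3 transcripts had a statistic of 202 each, with fold changes of 0.09 ± 0.15 (SE) for the highest of them and an adjusted p of 7.00e-41 from DESeq2 in the authors' deposited table. The contrast thus holds almost none of the difference: 99.8% of the Per3 statistic lies outside it. The diet left out of the contrast stood 1.84 ± 0.13 (SE) from the mean of the other diets, about 3.59-fold. It was about as far from the nearer of them (1.80) as from the farther one (1.89).

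Arntl in A/J had a fold change of -0.42 ± 0.28 with a statistic of 55.3 (adjusted p 3.57e-10, DESeq2) in the authors' deposited table. Its second transcript, which may share reads with it, had -0.39 with 52.1. Outside the contrast lay 95.9% of the statistic, and the distance came to 1.74 ± 0.24. In C57BL/6J the Arntl fold change was 0.23 ± 0.30 with a statistic of 22.6 (adjusted p 0.00101, DESeq2) in the authors' deposited table. There 97.4% lay outside the contrast and the distance was 1.22 ± 0.26. In each strain the 95% interval of the fold change (a normal interval from the SE) held 0 and the third diet stood apart by several SE.

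The D-box factors split between the tables. In A/J the activators Dbp and Tef had fold changes of 0.00 ± 0.14 and -0.02 ± 0.11, and statistics of 134 and 148 (adjusted p 1.17e-26 and 1.50e-29, DESeq2) in the authors' deposited table. The diets of the contrast thus differed by less than 1 SE in these transcripts. Dbp lay 1.45 ± 0.13 from them on the remaining diet, about 2.74-fold, and Tef 1.12 ± 0.09, about 2.17-fold. The 2 Tef transcripts had statistics of 146 and 148.

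In C57BL/6J the activator Hlf and the repressor Nfil3 had fold changes of -0.03 ± 0.12 and -0.01 ± 0.20 with statistics of 25.2 and 33.5 (adjusted p 0.000350 and 1.06e-05, DESeq2) in the authors' deposited table. Of the Hlf statistic 99.8% lay outside the contrast, and over 99.9% for Nfil3. Hlf had the smaller distance, 0.51 ± 0.10, about 1.42-fold, and Nfil3 1.01 ± 0.17, about 2.01-fold. Whether the activator and the repressor went in opposite directions on that diet cannot be read, since the distance has no sign.

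**Figure D2:**
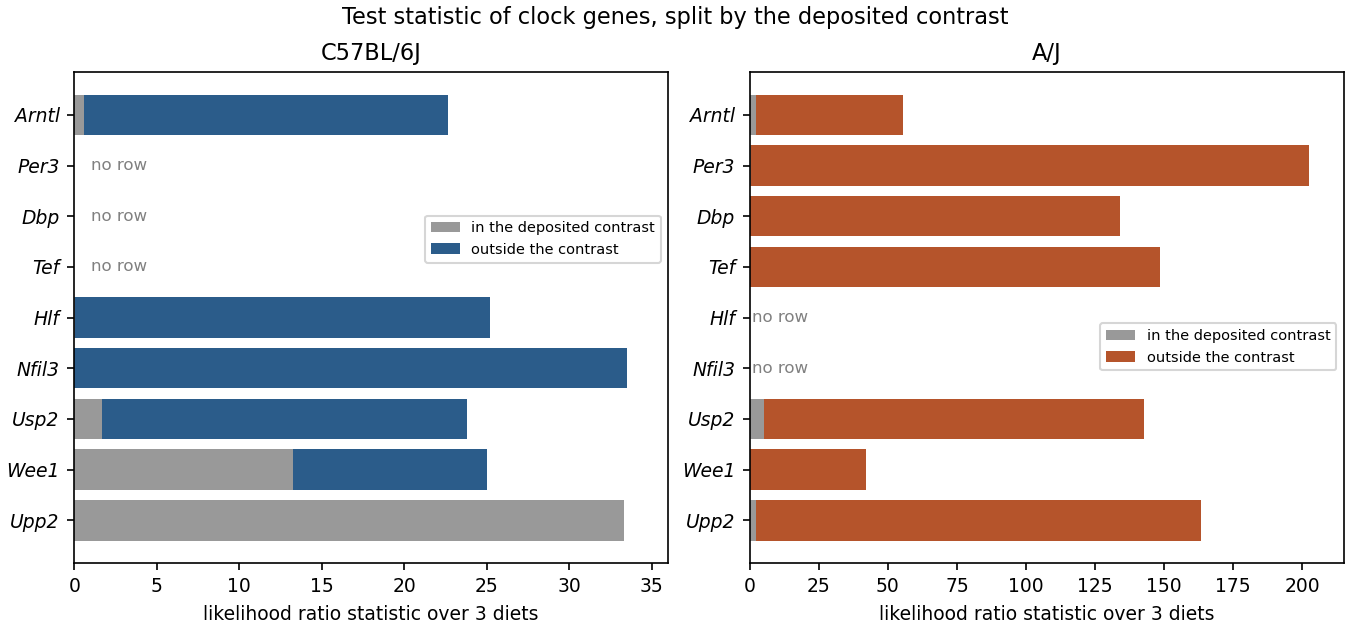
Likelihood ratio statistic over 3 diets of each clock gene (x axis, no unit, on a different scale in each strain), split into the squared ratio of the deposited fold change to its SE (grey) and the rest (coloured). Grey fills the whole bar of Upp2 in C57BL/6J and a large part of that of Wee1, whereas the A/J bars are almost all coloured.

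In C57BL/6J the output genes differed most in how they used the contrast. Usp2 encodes a deubiquitinating protease, Wee1 a kinase that holds back entry into mitosis, and Upp2 a liver enzyme that breaks down uridine. In C57BL/6J, Upp2 had a fold change of 1.15 ± 0.20 with a statistic of 33.3 (adjusted p 1.12e-05, DESeq2) in the authors' deposited table. Its squared ratio of 33.9 was as large as the statistic, so nothing was left for the third diet, which by this measure lay midway between the other diets. By point values, it was the one clock gene in either strain for which the third diet lay between the others. The place of Wee1 in C57BL/6J, 0.35 beyond the nearer diet with a distance SE of 0.27, is not settled. Among all named genes the third diet lay between the others in 134 of 455 in C57BL/6J and 68 of 482 in A/J. The 3 Upp2 transcripts in C57BL/6J had fold changes from 1.12 to 1.15 in the authors' deposited table.

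Upp2 in A/J showed the reverse use of the contrast. Its fold change was 0.25 ± 0.17 and its statistic 163 (adjusted p 1.10e-32, DESeq2) in the authors' deposited table. Of this, 98.6% lay outside the contrast, at a distance of 1.82 ± 0.14, about 3.53-fold. The transcript with this highest statistic had a mean normalized count of 4202, while the other Upp2 transcripts, at 8275 and 8442, reached 134 and 133 by the authors' deposited table.

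Wee1 in C57BL/6J had a fold change of -1.11 ± 0.31 with a statistic of 25.0 (adjusted p 0.000381, DESeq2) in the authors' deposited table. It thus had the opposite sign to Upp2 in the same contrast, and for both genes the 95% interval left out 0. The Wee1 statistic was split, with a squared ratio of 13.3 in the contrast and a remainder of 11.7. The third diet was 0.91 ± 0.27 from the mean of the others, which puts it 0.35 beyond the nearer one and 1.47 from the farther one. In A/J the Wee1 fold change was 0.01 ± 0.26 with a statistic of 42.2 (adjusted p 1.62e-07, DESeq2) in the authors' deposited table. Nearly all of that lay outside the contrast, at a distance of 1.44 ± 0.22.

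Usp2 had the largest distance of the clock genes studied in both strains, though in C57BL/6J its error overlaps those of Arntl, Nfil3 and Wee1. In A/J its fold change was 0.68 ± 0.30 with a statistic of 143 (adjusted p 1.77e-28, DESeq2) in the authors' deposited table. It was the only A/J clock gene of the 7 whose 95% interval left out 0, yet 96.4% of its statistic still lay outside the contrast. Its distance was 3.04 ± 0.26, or 3.51 with a factor of 1 in place of the square root of 3 over 2. In C57BL/6J the 3 Usp2 transcripts had fold changes from -0.47 to -0.40 and statistics from 23.5 to 23.8, with an adjusted p of 0.000622 (DESeq2) at the smallest, in the authors' deposited table. Here 92.9% lay outside the contrast, at a distance of 1.43 ± 0.30.

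**Figure D3:**
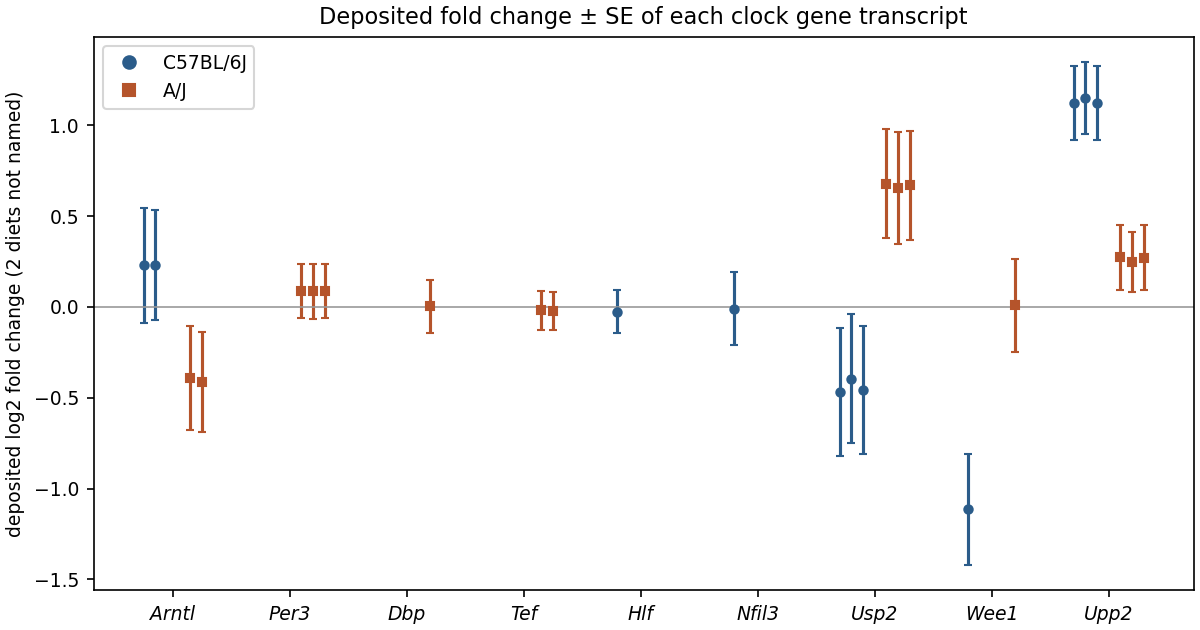
Deposited log2 fold change between the 2 unnamed diets, with bars of 1 SE, for every transcript of the clock genes in C57BL/6J (circles) and A/J (squares). Transcripts of a gene lie close together. Upp2 and Wee1 in C57BL/6J are farthest from 0, at 1.15 and -1.11, while Per3, Dbp, Tef, Hlf and Nfil3 sit at 0 within 1 SE.

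Of the 7 genes with an A/J row 4 had a fold change under 1 SE, Per3, Dbp, Tef and Wee1, and of the 6 in C57BL/6J 3 did, Arntl, Hlf and Nfil3. Among the other named genes with a row this share was 22.9% in A/J (109 of 475) and 20.0% in C57BL/6J (90 of 449). The median share of the statistic outside the contrast was 99.8% for the clock genes against 80.3% for all named genes in A/J, and 95.1% against 64.1% in C57BL/6J. The median statistic was 143 against 20.1 in A/J and 25.1 against 17.4 in C57BL/6J. Because the genes were picked for such rows, these values describe them and test nothing.

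By sign of the contrast, 5 A/J clock genes were positive and 2 negative, where 1.69% and 1.71% of all transcripts tested were called in these directions. In C57BL/6J 2 were positive and 4 negative, against 2.1% and 1.36%. In each strain most of these signs belong to fold changes whose 95% interval holds 0, 6 of 7 in A/J and 4 of 6 in C57BL/6J.

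**Figure D4:**
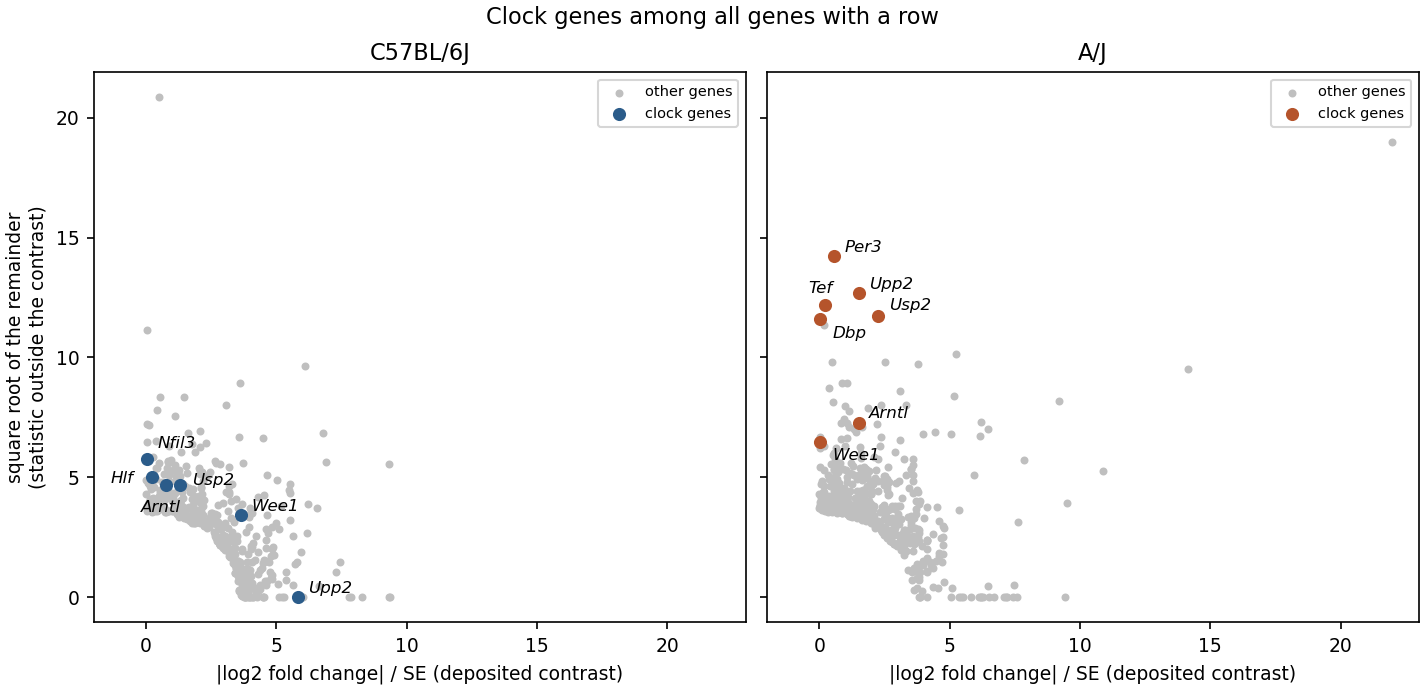
Every named gene with a row, by the size of its deposited fold change in SE (x axis) and the square root of the remaining statistic (y axis), with the clock genes coloured and named. In A/J, Per3, Upp2, Tef, Usp2 and Dbp stand high at the left edge above nearly all other genes, whereas the C57BL/6J clock genes lie within the cloud and Upp2 lies on the x axis.

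For the 4 genes with rows in both strains, values can be set side by side but not tested, since the strains were fitted apart and the tables do not say that their contrasts use the same diets. The distance in C57BL/6J and A/J was 1.22 ± 0.26 and 1.74 ± 0.24 for Arntl, and 0.91 ± 0.27 and 1.44 ± 0.22 for Wee1. For Usp2 it was 1.43 ± 0.30 and 3.04 ± 0.26, and for Upp2 0.00 ± 0.17 and 1.82 ± 0.14. The value was higher in A/J for all 4, but it leaves out the difference inside the contrast. For Wee1 the third diet lay 1.47 from the farther diet in C57BL/6J and 1.45 in A/J. That gap was 1.34 and 1.95 for Arntl, and 1.66 and 3.38 for Usp2. For Upp2 the difference in C57BL/6J, 1.15, lay inside the contrast, and the gap in A/J was 1.94. The 0 of Upp2 stands for a remainder just below 0, and the difference between strains was not tested.

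Counting error was worked out at the mean normalized count over all libraries, since counts by diet were not at hand. Where the diets of the contrast lie below that mean, its share of the error is larger than given here. At the mean normalized count of Per3 in A/J, 905 in the authors' deposited table, counting alone would give the fold change an error of 0.05, or 10.3% of the squared SE. At such mean counts this share ran from 1.81% to 15.7% over the A/J clock genes, and from 2.07% to 9.24% over those of C57BL/6J. On this approximation the remaining part of the SE is the spread between libraries as the authors' model estimated it. Usp2 in C57BL/6J had the widest SE of the clock genes, 0.35, and Tef in A/J the narrowest, 0.11, in the authors' deposited table. The sources used here give no total count per library.

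Of 29 other clock and output genes, listed by role, 10 had a row in A/J and 6 in C57BL/6J. Of all transcripts tested, 3.39% and 3.46% were called, which is a share of transcripts and not of genes. The lists were chosen with earlier results of these data known, so the counts are a description and test nothing. In A/J the 10 genes covered every role but the kinases and ligase parts, of which 0 of 5 had a row. Npas2, the partner of ARNTL in place of CLOCK, had in the authors' deposited table a fold change of -0.22 ± 0.40 with a statistic of 36.6. Its distance was 2.08 ± 0.35, with an error that overlaps that of Arntl. Among repressors, 3 of 7 had a row. Ciart, which represses ARNTL, had 0.40 ± 0.46 and a statistic of 80.7, Per2 -0.34 ± 0.24 and 26.3, and Bhlhe41, which competes for E-boxes, 0.00 ± 0.27 and 18.6 in the authors' deposited table. The Ciart distance of 3.58 ± 0.40, at a mean normalized count of 99.9, lay above that of Usp2, with errors that overlap. Its promoter window held 3 E-boxes, where 7.15% of all windows held at least 1. Of the 29 genes only Ciart was searched for them. The REV-ERB receptor gene Nr1d2 was the one nuclear receptor of 5 with a row, with a fold change of 0.02 ± 0.14 in the authors' deposited table beside a statistic of 16.7, and its distance was 0.48 ± 0.12.

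Outputs in A/J gave 5 rows of 10, all with at least 85.3% of the statistic outside the contrast. Por, the electron donor of cytochromes P450, had the highest statistic of these, 66.1, with a fold change of 0.30 ± 0.16 in the authors' deposited table and a distance of 1.09 ± 0.14. The others were Cyp2a5, a cytochrome gene under D-box control, Cdkn1a, a cell cycle inhibitor gene, Gys2, the liver glycogen synthase gene, and Nampt, which acts in NAD synthesis, with statistics from 20.7 to 29.6. Of all 10 genes 7 had a positive and 3 a negative fold change, and 6 were under 1 SE.

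In C57BL/6J the 6 other genes were Cry1, Rora and the outputs Cyp2a5, Nr1i3, Nampt and Por. Cry1, a repressor of the core loop, had a fold change of -0.43 ± 0.22 with a statistic of 13.8 (adjusted p 0.0336, DESeq2), and Rora, a receptor acting on ROR elements, -0.24 ± 0.13 with 13.0 (adjusted p 0.0441) in the authors' deposited table. Both were near the threshold of 0.05, whereas the largest adjusted p of a transcript of the 9 genes was 0.00366, of Arntl in C57BL/6J. The outputs had statistics from 18.2 to 28.5, and at least 83.1% of each lay outside the contrast. Of the 6, 2 were positive and 4 negative, and 1, Por, was under 1 SE. Cyp2a5, Nampt and Por were in both tables, as were 75 of the 862 named genes.

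**Figure D5:**
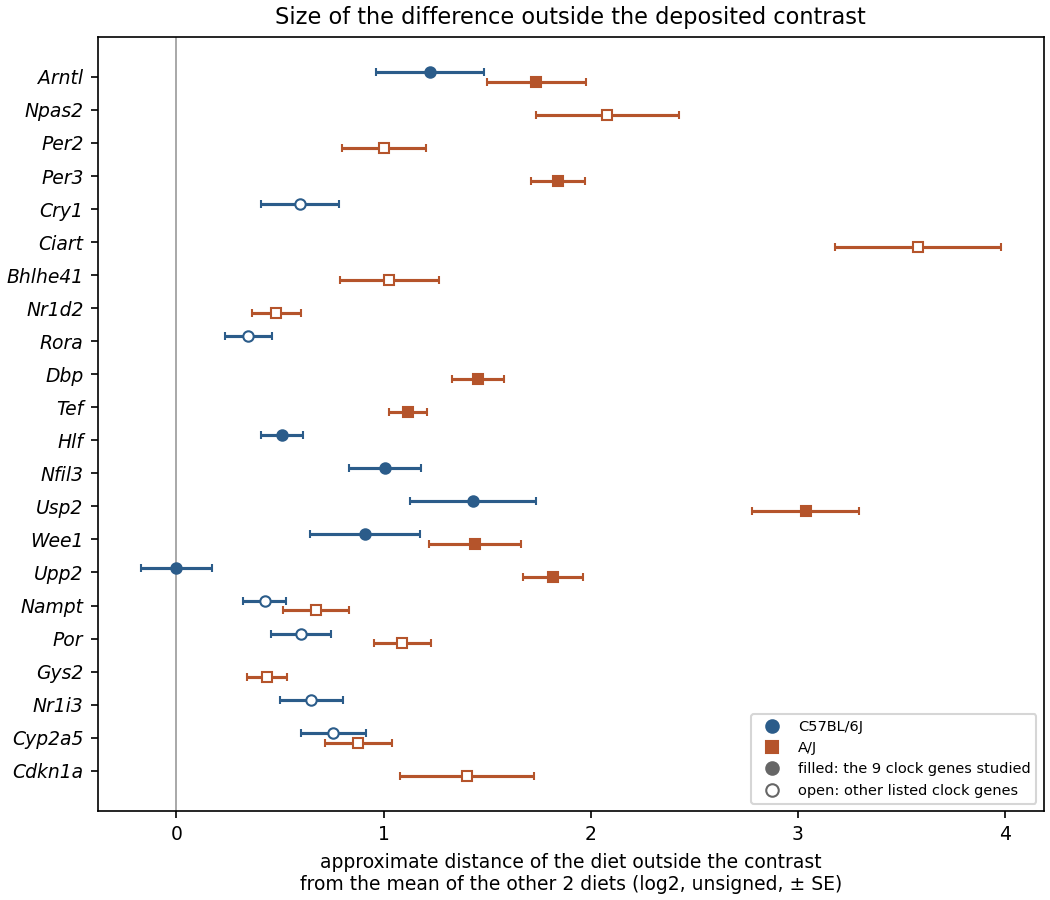
Approximate distance of the diet outside the contrast from the mean of the other 2 diets, on the log2 scale and without sign, with bars of 1 SE, by gene in order of role. Filled symbols are the clock genes studied and open ones other listed clock genes. Usp2 and Ciart in A/J lie farthest right at 3.04 and 3.58, and Upp2 in C57BL/6J lies at 0.

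Genes outside the 9 with a fold change under 1 SE were ranked by statistic, over the 6 libraries of a strain. The 5 highest were taken, whether or not their statistics were near those of the 9. In A/J these were G6pc, the glucose-6-phosphatase gene, Mtss1, Ciart, Coq10b and Insig2, whose statistics in the authors' deposited table were 129, 96.4, 80.7, 76.5 and 66.5. G6pc, at a fold change of 0.03 ± 0.15 and a distance of 1.51 ± 0.13, lay next to Dbp on both measures. In C57BL/6J they were the pseudogene transcript Cyp4b1-ps2, Mir340, Actg1, Inhbe and Me1, whose statistics in the authors' deposited table were 435, 125, 70.0, 61.1 and 52.3. All of these exceeded the 33.5 of Nfil3, so the clock genes were not the leading genes of this kind in that strain. For Mir340 the SE was 4.59 at a mean normalized count of 31.8 in the authors' deposited table, and no distance is given for it.

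Of the 8 hepatocyte markers 3 had a row in C57BL/6J (Cps1, Hnf4a and Apoa1) and 1 in A/J (Cps1). Of the 15 markers of macrophages, lymphocytes, stellate cells, endothelium and cholangiocytes 0 had a C57BL/6J row, and 1, the macrophage gene Marco, had an A/J row. Since the tables list transcripts called at the threshold only, the label of liver could not be checked against markers without a row. Outside that list, and named after their values were seen, the macrophage genes Cd163, Cd5l and Fcna had A/J rows, with 19.8, 13.6 and 21.9 as their statistics by the authors' deposited table. The MHC class II genes H2-Aa and H2-Ab1 of antigen-presenting cells had 31.2 and 27.4 there, and Cd163 also had a C57BL/6J row, at 15.8 in the authors' deposited table. The part of these cells in the values of the clock genes was not tested.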

How the data were processed

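RNA-seq of 12 liver libraries gave 1 deposited table per strain. The submitters' processing notes list the build mm9 and the tools TopHat, Bowtie2 and DESeq2 without versions or roles. Per the file headers, the columns are DESeq2 results: the authors' mean normalized count (a signal), log2 fold change and SE, also log2, the likelihood ratio statistic (a score), and p-value and adjusted p-value. The deposited p-values match a chi-square with 2 degrees of freedom, so the test is over 3 diets. How many transcripts were tested follows from deposited p and adjusted p. Symbols came from RefSeq (GRCm38.p6), which matched 675 of 681 and 690 of 699 transcripts. A gene was represented by its transcript with the smallest p. The distance is the square root of the remainder, times SE, times the square root of 3 over 2, and was tried on simulated counts. That check allowed single errors wider than the SE of any clock gene distance, so it cannot speak for those SEs. A remainder below 0 was set to 0. Python 3.11.15, pandas 2.3.3 and SciPy 1.17.1 were used.

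Members and lists were chosen with earlier results of these data known. Named genes were all members, other listed clock genes with a row, and per strain the 5 most like. Values per library were not analysed here, so no refit was made, and the 6 deposited peak lists were not used. Alternatives were stricter thresholds, another transcript per gene, another factor for the distance and other motif letters.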

Additional observations from a re-analysis of the deposited data

How the results depend on the processing

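At an adjusted p threshold of 0.01 the counts stayed at 6 genes in C57BL/6J and 7 in A/J. At 0.001 they were 5, without Arntl, and 7. With the 95% interval in place of 1 SE, it held 0 in 4 C57BL/6J and 6 A/J genes, against 3 and 4 under 1 SE. With each gene represented by its transcript of the highest mean level, the counts under 1 SE stayed at 3 and 4. All 13 distances moved by less than their SE. The count of genes with a row cannot change by this choice, and the 95% interval was not recounted with it. A factor of 1 for the distance raised every one except the 0 of Upp2 in C57BL/6J, 7 of 13 by more than their SE. These 7 were all the A/J distances, so the SE given with them does not cover this choice. A longer ROR element, with 2 A and any base before the TAGGTCA core, was found in 1 gene, Arntl, in place of 2, and in 0.219% of all windows. Counts of E-box genes with CACGTT added (11.4% of all windows) and of D-box genes with TTATGNAA, which takes in both D-boxes (3.38%), stayed at 1. No paired analysis was possible because the tables carry no value per library, and leaving out each library was not run for the same reason. The diets of the contrast are not named, so no direction by diet could be given.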
